A study of Mus musculus with 4 samples.

Results

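The genes described here encode the contractile apparatus of smooth muscle, which in the testis is carried by the peritubular myoid cells that wrap the seminiferous cords and by the walls of blood vessels. The set holds 9 genes: Acta2, Cnn1, Tagln, Myh11, Lmod1, Actg2, Des, Mylk and Cald1. They were chosen by name, with earlier results of these data known, so their counts set against all probes are a description. Their probes were found by matching the RefSeq accession of each array probe to a gene symbol, which gave 14 probes of the 41174 on the array. All 14 were well above background on all 8 arrays and none was saturated, so every member was among the 28188 probes tested and no value of a member is a bound.

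RNA was taken from whole gonads of wild-type male embryos of a mouse line labelled MCH, on 4 successive days from embryonic day 12.5 (E12.5) to E15.5. Each day had 2 one-colour Agilent arrays, which the series text describes as biological duplicates. Labels name no treatment, and the number of embryos behind an array is not given in the sources used here. The first arrays of E12.5 and E13.5 lay side by side on slide 1, the second ones on slide 2, and the 4 arrays of the later days lay together on slide 3. The step from E12.5 to E13.5 was therefore measured within slides 1 and 2, and the step from E14.5 to E15.5 within slide 3. Slide and stage cannot be told apart in the other comparisons, E14.5 against E13.5 and the whole span.

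In smooth muscle, thin filaments of actin slide along filaments of smooth muscle myosin. Contraction starts when myosin light chain kinase phosphorylates the myosin light chain, and proteins bound to the thin filament, such as calponin and caldesmon, restrain it. Many of these genes are switched on together by serum response factor and its coactivators of the myocardin family, which act at a short DNA element called the CArG box. In the fetal testis, smooth muscle actin marks the peritubular cells once cords have formed.

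Values are log2 of the processed signal relative to the array's 75th percentile, so they compare arrays for one probe and not one probe with another. Differences are log2 changes between stage means ± the standard error of limma (n = 2 arrays per stage). A probe was said to rise or fall when the Benjamini-Hochberg adjusted p of limma, over all 28188 probes, was under 0.05. Such p-values cover the spread of duplicate arrays alone.

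Markers of testis cell types were detected. All 6 Sertoli cell markers, all 5 fetal Leydig cell markers and 5 of the 6 germ cell markers on the fixed lists were above background on all 8 arrays, and Nanos2, of germ cells, on 7. The 75th percentile of the signal ranged from 802 to 1784 over arrays. Duplicate arrays correlated across probes with r between 0.978 and 0.987, which describes the arrays, since probes are not independent replicates.

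**Figure D1:**
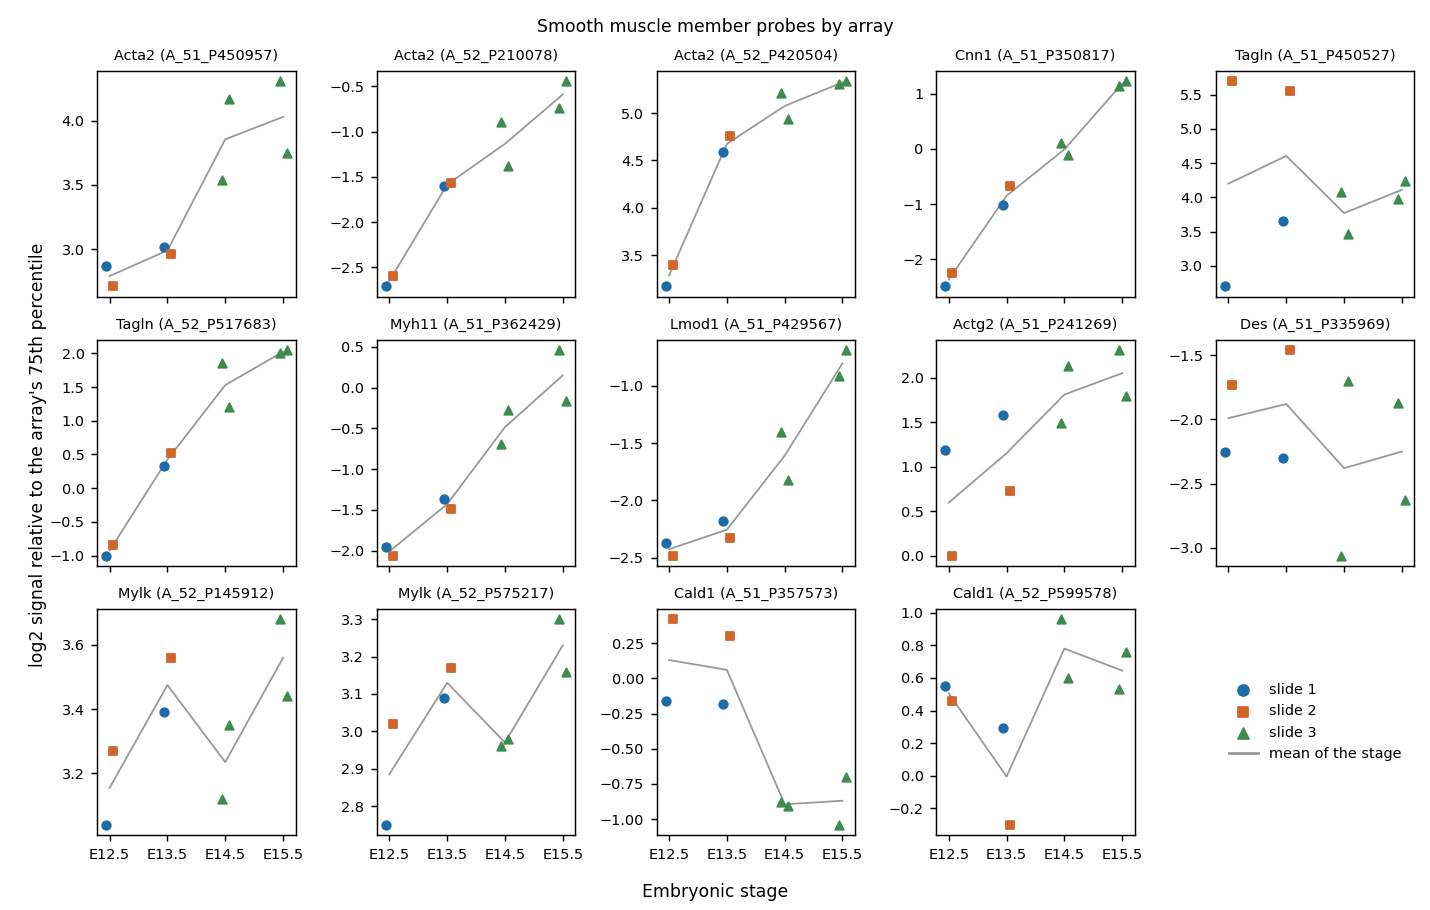
Log2 signal relative to the array's 75th percentile (vertical axes, a range per panel) of the 14 probes of the 9 genes against embryonic stage (horizontal axis), with 1 point per array, a symbol and colour per slide and a line through the stage means. In probes of Cnn1, Myh11 and Lmod1, 2 of Acta2 and 1 of Tagln, both arrays of every stage lie above both of the stage before, and the other Tagln probe is highest on slide 2.

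Over the whole span, from E12.5 to E15.5, 7 of the 14 probes rose and 1 fell, while 16.9% of all probes tested rose and 17.4% fell. At an unadjusted p under 0.05 there were 9 of 14 (46.2% of all probes), 11 of 14 changes were positive (46.5%), and 10 of 14 had both E15.5 arrays above both E12.5 arrays (34.4%). The risen probes belonged to 5 of the 9 genes: Acta2, Cnn1, Tagln, Myh11 and Lmod1. The median change of the 14 probes was 1.35, against -0.08 for all probes. Actg2, Des and Mylk did not pass the test with any probe, and Cald1 had one probe that fell and one that did not pass. Leaving out single arrays left between 6 and 8 of the 14 called. In bulk tissue, a change in the number of smooth muscle cells and a change in the RNA each of them holds cannot be told apart.

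A description chosen after the values were seen is whether every array of a stage lay above every array of the stage before. This held from E12.5 through E15.5 for 6 of the 14 probes, of Acta2, Cnn1, Tagln, Myh11 and Lmod1, and for 2.77% of all probes tested. It was 3 of 14 (1.87% of all probes) with arrays scaled to their medians and 4 of 14 (0.763%) after normexp background correction.

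Acta2 encodes smooth muscle alpha-actin, the thin filament actin that is the usual stain for peritubular cells. The gene lies at chr19:34240336-34255585 (GRCm38.p6), and the array has 3 probes for it. Probe A_52_P420504 is spotted 10 times on each array. Its values were 3.17 and 3.40 at E12.5, 4.59 and 4.76 at E13.5, 5.21 and 4.94 at E14.5, and 5.31 and 5.34 at E15.5. Stages did not overlap, and the largest step was the first. From E12.5 to E13.5 it rose by 1.39 ± 0.19 (adjusted p = 0.0167), by 1.42 on slide 1 and 1.36 on slide 2. Its spots within an array had an SD of 0.05 to 0.10, which leaves out the spread between samples. Over the whole span it rose by 2.04 ± 0.19 (adjusted p = 0.000731), or 4.11-fold.

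A second Acta2 probe, A_52_P210078, read -2.71 and -2.59, -1.60 and -1.57, -0.89 and -1.38, and -0.74 and -0.44 at the 4 stages in turn, again without overlap. Its whole-span change of 2.06 ± 0.23 (adjusted p = 0.00125) was close to that of the first probe. Its first-day change of 1.07 ± 0.23 did not pass (adjusted p = 0.0646). The remaining Acta2 probe, A_51_P450957, gave another course, with 2.87 and 2.71 at E12.5, 3.02 and 2.96 at E13.5, 3.54 and 4.17 at E14.5, and 4.31 and 3.75 at E15.5. Here the arrays of the first and second stages were close together, those of the last stages overlapped, and the higher values lay on slide 3. Over the first day it changed by 0.20 ± 0.28 (adjusted p = 0.844). Its whole-span rise was 1.24 ± 0.28 (adjusted p = 0.017). That call was lost after normexp correction (adjusted p = 0.125) and without E12.5 array 1, E12.5 array 2 or E15.5 array 1, with adjusted p up to 0.0856 for the arrays. All 3 Acta2 probes thus rose over the span, while their first-day changes ran from 0.20 to 1.39. Which part of the transcript each probe reads is not given in the sources used here.

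Upstream sequence is shown for 3 of the risen genes, because the CArG box is the textbook element of this gene set. RefSeq windows of GRCm38.p6, from 250 bases before to 50 after a gene's start, were at hand for 6 of the 9 genes, in 7 windows. Tagln, Myh11 and Actg2 had none. The start that the table uses was the outer end of the annotated gene span in 2 windows, of Des and Lmod1, and lay inside that span in 5. It was 212 bases inside for Acta2, 32 for Cnn1, 39751 for Mylk, and 9 and 110949 for the windows of Cald1. Matches before it can thus fall within the gene coordinates given here. The windows were searched on both strands for the CArG box, with at most 1 base off its consensus, and for the MCAT element (CATTCC or GGAATG, its reverse complement), a binding motif of TEAD factors. The CArG consensus is its own reverse complement, and no CArG match overlapped an MCAT match in the sequences below. Capitals mark the matches in the window of Acta2 at chr19:34255324-34255623 on the minus strand, of Lmod1 at chr1:135324563-135324862 on the plus strand and of Cnn1 at chr9:22099003-22099302 on the plus strand, each printed 5′ to 3′ along its gene.
Acta2: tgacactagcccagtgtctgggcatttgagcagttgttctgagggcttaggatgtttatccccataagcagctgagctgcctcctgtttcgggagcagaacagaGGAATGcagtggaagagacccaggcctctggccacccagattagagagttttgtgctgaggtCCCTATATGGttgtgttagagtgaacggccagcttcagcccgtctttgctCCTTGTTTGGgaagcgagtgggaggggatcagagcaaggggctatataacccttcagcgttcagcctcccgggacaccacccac
Lmod1: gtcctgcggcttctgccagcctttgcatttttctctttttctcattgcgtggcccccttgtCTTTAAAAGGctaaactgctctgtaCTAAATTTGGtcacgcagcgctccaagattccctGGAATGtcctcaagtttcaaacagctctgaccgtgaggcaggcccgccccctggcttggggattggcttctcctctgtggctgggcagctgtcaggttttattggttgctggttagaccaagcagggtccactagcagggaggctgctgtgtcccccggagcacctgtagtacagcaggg
Cnn1: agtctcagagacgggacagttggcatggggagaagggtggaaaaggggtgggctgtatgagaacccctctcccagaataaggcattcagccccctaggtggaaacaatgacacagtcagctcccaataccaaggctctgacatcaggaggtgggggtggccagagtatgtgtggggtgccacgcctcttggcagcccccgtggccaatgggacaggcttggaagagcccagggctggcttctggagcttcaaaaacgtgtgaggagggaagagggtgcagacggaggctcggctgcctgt

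The Acta2 window held a pair of CArG matches, CCCTATATGG at 84 to 75 bases and CCTTGTTTGG at 34 to 25 bases before the start, each 1 base off the consensus. It also held an MCAT match at 146 to 141 bases before the start. Lmod1 likewise had a pair of CArG matches, CTTTAAAAGG at 189 to 180 and CTAAATTTGG at 164 to 155 bases before the start, and an MCAT match at 130 to 125. The Cnn1 window held no match to either motif. Of all 7 windows, 3 held a CArG match with at most 1 base off and 0 an exact one. Among all 32851 windows in the RefSeq table the shares were 21.1% and 1.63%. MCAT was in 4 of 7 windows, against 14.7% of all. The CArG windows were those of Acta2, Lmod1 and 1 of Cald1, and the MCAT windows were the same ones and that of Mylk. No probe of Cald1 or Mylk rose over the span, and a link of motif and change was not tested. The hits are matches of letters in short windows and not measured binding sites. Distances are counted to the RefSeq start used, which was not checked as the place where transcription begins.

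Actg2, at chr6:83512909-83536251, encodes smooth muscle gamma-actin, best known from the gut wall. Its 1 probe, A_51_P241269, read 1.19 and 0.00 at E12.5, 1.58 and 0.72 at E13.5, 1.49 and 2.13 at E14.5, and 2.31 and 1.79 at E15.5. Arrays on slide 2 were the lower ones at both early stages, and neighbouring stages overlapped. Within slides, E13.5 was higher than E12.5 by 0.39 on slide 1 and by 0.72 on slide 2, a mean change of 0.55 ± 0.49 that did not pass (adjusted p = 0.705). That standard error is from the model without slide. It therefore also holds the mean difference of slide 2 minus slide 1, which was -1.03. The whole-span change was 1.46 ± 0.49 and did not pass the test (adjusted p = 0.0599), with an unadjusted 95% interval from 0.28 to 2.63. Coding sequences of the actins are very alike, so signal may be shared between their probes. Cross-reaction was not tested.

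Cnn1 encodes calponin, a thin filament protein that restrains the myosin motor and is found mainly in differentiated smooth muscle. The gene is at chr9:22099221-22109221. Its 1 probe, A_51_P350817, read -2.49 and -2.24 at E12.5, -1.02 and -0.68 at E13.5, 0.10 and -0.12 at E14.5, and 1.13 and 1.23 at E15.5. Both arrays of every stage stood above both of the stage before, the last stage included. Cnn1 rose by 1.51 ± 0.21 from E12.5 to E13.5 (adjusted p = 0.0162), by 1.46 on slide 1 and 1.56 on slide 2. From E14.5 to E15.5, within slide 3, it changed by 1.19 ± 0.21 (adjusted p = 0.0863). Its whole-span rise of 3.54 ± 0.21 (adjusted p = 0.000166), or 11.7-fold, was the largest among the 14 probes and kept its call under every alternative tried.

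Tagln, at chr9:45929628-45936058, encodes transgelin, also called SM22, a small actin-binding protein of the calponin family and an early mark of smooth muscle. Its probes gave different results. Probe A_52_P517683 read -1.0 and -0.85 at E12.5, 0.33 and 0.52 at E13.5, 1.86 and 1.20 at E14.5, and 2.0 and 2.05 at E15.5. Both arrays of each stage lay above both of the stage before. Its rise was 1.35 ± 0.25 over the first day (adjusted p = 0.0432), with 1.33 on slide 1 and 1.37 on slide 2. Over the whole span it was 2.95 ± 0.25 (adjusted p = 0.000496), or 7.75-fold. With slide as a block the first-day call was lost, as it was under several other alternatives.

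The other Tagln probe, A_51_P450527, read 2.70 and 5.70 at E12.5, 3.66 and 5.55 at E13.5, 4.08 and 3.46 at E14.5, and 3.98 and 4.24 at E15.5. Both arrays on slide 2 stood far above both on slide 1. The mean difference between those slides was 2.44, and 0.412% of all probes tested had one as large in that direction. With duplicates so far apart, its whole-span change was -0.09 ± 1.0 (adjusted p = 0.953), with an unadjusted 95% interval from -2.48 to 2.30. That interval is far wider than those of the other probes and ends below the 2.95 of A_52_P517683.

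**Figure D2:**
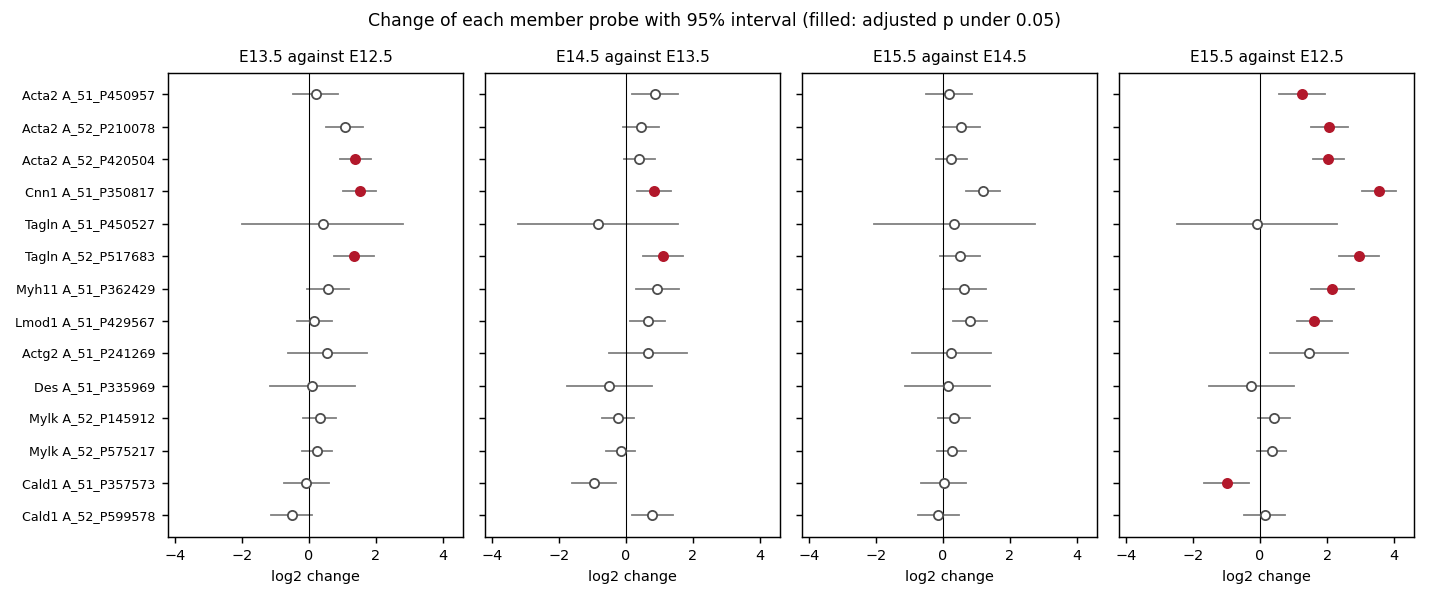
Log2 change (horizontal axes) of each of the 14 probes (rows) in 4 stage comparisons (panels), with unadjusted 95% intervals of limma as bars and filled points for an adjusted p under 0.05. Filled points are few in the single-day panels, at 3, 2 and 0 probes, and number 8 for E15.5 against E12.5, of which 1, a Cald1 probe, lies to the left of zero.

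Cald1 encodes caldesmon, an actin- and tropomyosin-binding brake on the myosin motor with a long form in smooth muscle and a short form in many other cells. The gene spans chr6:34598495-34775469, and the RefSeq table gives it a pair of start sites. Probe A_51_P357573 read -0.16 and 0.42 at E12.5, -0.18 and 0.30 at E13.5, -0.88 and -0.91 at E14.5, and -1.04 and -0.70 at E15.5. All arrays on slide 3 were lower than all others. Its whole-span fall of -1.0 ± 0.28 (adjusted p = 0.0332) was lost with median scaling, normexp, no filter or only the arrays compared, and without E12.5 array 2, E15.5 array 1 or E15.5 array 2 (adjusted p up to 0.184), and the steps within slides were -0.02 on slide 1, -0.13 on slide 2 and 0.02 on slide 3. Thus the fall was seen only across slides.

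Probe A_52_P599578 of Cald1 read 0.55 and 0.46, 0.29 and -0.30, 0.96 and 0.60, and 0.53 and 0.76 at the 4 stages in turn. E12.5 and E15.5 overlapped, and E13.5 was the lowest stage. Its whole-span change was 0.14 ± 0.26 (adjusted p = 0.701). Between E13.5 and E14.5 the probes of Cald1 moved in opposite directions, by -0.95 ± 0.28 and 0.78 ± 0.26, though neither change passed (adjusted p = 0.0707 and 0.0917). Which caldesmon form each probe reads is not given in the sources used here.

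Lmod1, at chr1:135324813-135368065, encodes leiomodin, which starts new actin filaments in smooth muscle. Its 1 probe, A_51_P429567, read -2.37 and -2.48 at E12.5, -2.18 and -2.33 at E13.5, -1.40 and -1.82 at E14.5, and -0.92 and -0.69 at E15.5. Values of the first and second stages lay close together, and the last stage stood well clear. The first-day change was 0.17 ± 0.21 (adjusted p = 0.82) and the last-day change 0.81 ± 0.21 (adjusted p = 0.237). Over the whole span Lmod1 rose by 1.62 ± 0.21 (adjusted p = 0.00235), or 3.07-fold, a call that was lost after normexp correction (adjusted p = 0.0917).

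Myh11, at chr16:14194527-14292188, encodes the smooth muscle myosin heavy chain, the motor itself and the most smooth-muscle-restricted protein of the set. Its 1 probe, A_51_P362429, read -1.96 and -2.06 at E12.5, -1.37 and -1.49 at E13.5, -0.69 and -0.28 at E14.5, and 0.46 and -0.16 at E15.5. The steps were of similar size at each day, at 0.58 ± 0.26, 0.94 ± 0.26 and 0.64 ± 0.26, and none passed on its own (adjusted p = 0.361, 0.064 and 0.556). Their sum, a rise of 2.16 ± 0.26 (adjusted p = 0.00179) or 4.46-fold, passed and kept its call under every alternative tried.

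Mylk encodes myosin light chain kinase, the switch of contraction, in a short smooth muscle form and a long form found in other cells. The gene spans chr16:34745199-35002436. Probe A_52_P145912 read 3.04 and 3.27, 3.39 and 3.56, 3.12 and 3.35, and 3.68 and 3.44 at the 4 stages in turn. Probe A_52_P575217 read 2.75 and 3.02, 3.09 and 3.17, 2.96 and 2.98, and 3.30 and 3.16. Stages lay close together for both probes, with E14.5 means below E13.5 means by differences of -0.24 and -0.16 that did not pass (adjusted p = 0.435 and 0.574) and became 0.12 and 0.22 after normexp correction. Whole-span changes of 0.41 ± 0.20 and 0.34 ± 0.18 did not pass (adjusted p = 0.161 and 0.186). Their unadjusted 95% intervals ended at 0.89 and 0.78, below the changes of Acta2, Cnn1, Myh11, Lmod1 and the Tagln probe that rose.

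Des, at chr1:75360292-75368579, encodes desmin, the intermediate filament of smooth, skeletal and heart muscle. Its 1 probe, A_51_P335969, is also spotted 10 times per array. It read -2.25 and -1.73 at E12.5, -2.30 and -1.46 at E13.5, -3.06 and -1.70 at E14.5, and -1.87 and -2.63 at E15.5. Stages overlapped throughout, and the duplicates of E14.5 were far apart. Its spots within an array had an SD of 0.06 to 0.10, which leaves out the spread between samples. The whole-span change was -0.26 ± 0.53 (adjusted p = 0.731), with an unadjusted 95% interval from -1.53 to 1.01.

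From E12.5 to E13.5, the step that both slides measured, 3 of the 14 probes rose and 0 fell, against 2.29% and 0.937% of all probes tested. They were Acta2 A_52_P420504, Cnn1 and Tagln A_52_P517683, each with nearly the same step on both slides. At an unadjusted p under 0.05 there were 4, against 16.0% of all probes. Of the 14 probes 12 had a positive change, against 43.7% of all, and 9 had both E13.5 arrays above both E12.5 arrays, against 22.3% of all. The number called fell to 0 without E12.5 array 1, E12.5 array 2, E13.5 array 1 or E13.5 array 2, and to 0 after normexp correction or with only the arrays compared, while the changes of these 3 probes stayed between 1.08 and 1.68.

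Over the last day, measured on slide 3, 0 of the 14 probes passed limma's test in either direction, where 0.493% of all probes rose and 0.0851% fell. At an unadjusted p under 0.05 there were 3, of Cnn1, Lmod1 and Myh11, against 8.84% of all probes. Changes were positive for 13 of the 14 probes, against 49.3% of all, and 8 had both E15.5 arrays above both E14.5 arrays, against 17.8% of all.

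From E13.5 to E14.5, across slides, Cnn1 rose by 0.84 ± 0.21 (adjusted p = 0.0474) and Tagln A_52_P517683 by 1.11 ± 0.25 (adjusted p = 0.0384), so 2 of the 14 probes rose, against 6.54% of all probes. None fell, against 6.01% of all, and 7 of 14 had an unadjusted p under 0.05, against 32.1% of all. Positive changes numbered 9 of 14 (49.2% of all probes), and 8 of 14 had both later arrays above both earlier ones (29.7%). Leaving out E14.5 array 2 left 1 of these calls, and leaving out any other single array left 0.

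The last-day step was set against the first-day step for each probe in the same model, and 0 of the 14 probes passed. There were 2 at an unadjusted p under 0.05, against 13.2% of all probes, while 0.859% and 1.13% of all probes were called higher and lower. The difference was positive for 7 of 14, against 54.3% of all probes. The step of Acta2 A_52_P420504 was smaller on the last day by a difference of -1.14 ± 0.28 (adjusted p = 0.111), and that of Tagln A_52_P517683 by -0.85 ± 0.36 (adjusted p = 0.378). For Lmod1 the difference was 0.64 ± 0.30 (adjusted p = 0.454).

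**Figure D3:**
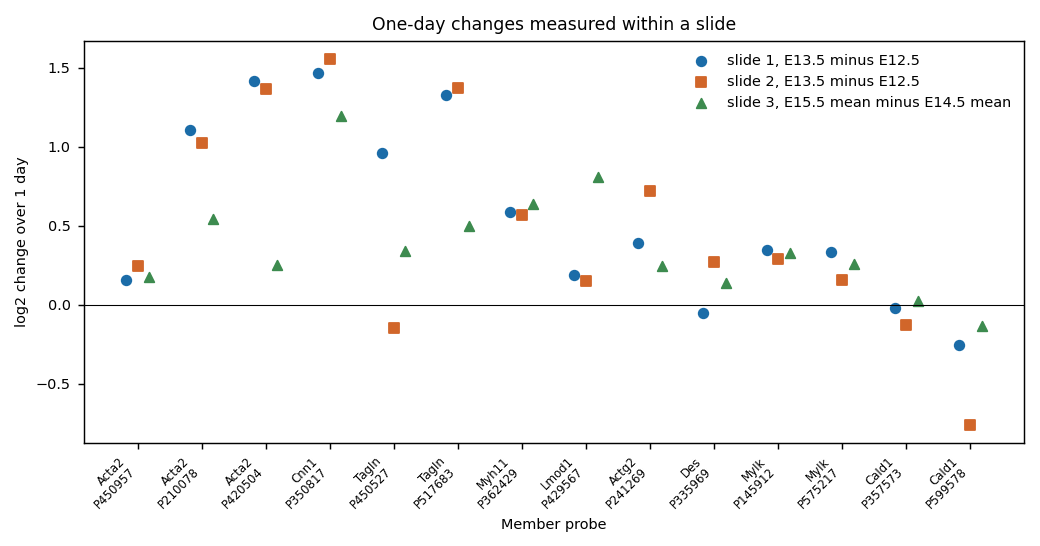
Log2 change over 1 day (vertical axis) of each of the 14 probes (horizontal axis), with circles for slide 1 and squares for slide 2 (E13.5 minus E12.5) and triangles for slide 3 (mean of E15.5 minus mean of E14.5). The circles and squares nearly coincide for Acta2 A_52_P420504, Cnn1 and Tagln A_52_P517683, between 1.33 and 1.56, and part by more than 1 for Tagln A_51_P450527.

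Of 30 other genes of the smooth muscle contractile apparatus and cytoskeleton on a fixed list, 25 were measured with 1 probe each, the brightest. Between E12.5 and E15.5, 7 rose, 3 fell and 15 did not pass, with a median of 0.14 against -0.08 for all probes, of which 16.9% rose and 17.4% fell. Those shares are the background for every whole-span count of a list below, and no difference between lists was tested. They are over all probes tested, with or without a gene symbol, whereas the lists take the brightest probe of each gene. A share over 1 probe per gene is not given here. Pdlim3, a scaffold at actin attachment sites, rose by 3.22 ± 0.22 (adjusted p = 0.0003), with arrays at 1.77 and 1.60, 2.80 and 2.62, 4.13 and 3.74, and 4.75 and 5.06. Casq2, a calcium store protein, rose by 2.01 ± 0.25. Nexn, an actin-binding protein, rose by 1.82 ± 0.29. The 3 that fell were Itga8, Dmpk and Mustn1. Itga8 changed by -1.57 ± 0.25 (adjusted p = 0.0043) and was above background on all 8 arrays. Dmpk changed by -1.72 ± 0.25 (adjusted p = 0.0035), with 1 of its E15.5 arrays above background. Mustn1 was called as fallen, but neither E15.5 array measured it above background. Its fitted change of -2.25 thus rests on E15.5 values at the floor, and no bound was computed for it. In the single-day steps 2 rose and 0 fell at E13.5, against 2.29% and 0.937% of all probes. At E14.5, 2 rose and 1 fell, against 6.54% and 6.01% of all. At E15.5, 0 passed, where 0.493% of all rose and 0.0851% fell. Myl9, Synpo2, Flna and Ppp1r12b were not matched to a probe by symbol, and Kcnmb1 was not tested.

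Among regulators of smooth muscle genes, of 21 fixed names, older synonyms among them, 17 were measured, and over the whole span 3 rose, 3 fell and 11 did not pass, near the shares over all probes (16.9% and 17.4%), with a median of 0.03. Srf, serum response factor, changed by 0.53 ± 0.25 (adjusted p = 0.148). Myocd, the smooth and heart muscle coactivator of Srf, was above background on all arrays and changed by -0.31 ± 0.27 (adjusted p = 0.396). Mef2c fell by 1.51 on the log2 scale and Mrtfb, a coactivator related to Myocd, by 1.16, whereas Tbx18 rose by 1.31 ± 0.35 and Fhl1 by 1.25 ± 0.27.

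A list of paralogs and partners in the actin, calponin and myosin families also held the intermediate filament genes Vim and Nes. Of the 11 measured genes on that list, 3 rose, 1 fell and 7 did not pass over the span, with a median of 0.31. Among all probes 16.9% rose and 17.4% fell. Cnn2 and Tagln2 were also counted among the other contractile genes above. The sarcomeric actin genes Actc1 and Acta1 rose by 2.31 ± 0.27 and 2.0 ± 0.56. The non-muscle myosin heavy chain genes went apart: Myh9 rose by 1.21 ± 0.23 and Myh10 fell by 1.06 on the log2 scale.

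**Figure D4:**
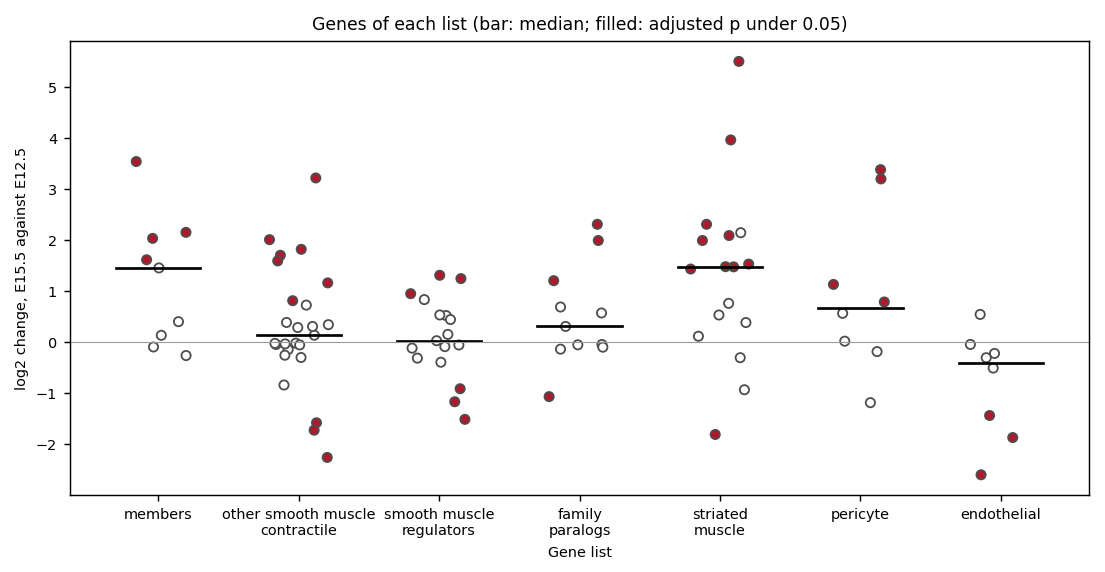
Log2 change of E15.5 against E12.5 (vertical axis) for every measured gene of 7 gene lists (horizontal axis), with 1 probe per gene, the brightest, a bar at each list's median and filled points for an adjusted p under 0.05. Tagln is drawn with A_51_P450527, not with the probe that rose. By this choice of probe the medians are 1.46 for the 9 members, 0.14 for other contractile genes, 1.48 for striated muscle genes, 0.68 for pericyte genes and -0.40 for endothelial genes. Higd1b, of pericytes, is drawn at its fitted change although no E12.5 array measured it, and so is Mustn1, of the other contractile genes, although no E15.5 array measured it.

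Genes of other cell types also changed over the same span, in which 16.9% of all probes rose and 17.4% fell. All 5 fetal Leydig cell markers rose, with a median of 2.52, and their summed level, in multiples of the array's 75th percentile, ran from 23.7 to 30.8 at E12.5 and from 134 to 159 at E15.5. All 5 also rose over the first day, against 2.29% of all probes, with a median of 2.04, and reached 100.5 to 129.5 at E13.5. Cyp11a1, which starts steroid synthesis, rose over the span by 3.51 ± 0.25. Of 21 striated muscle genes 17 were measured, and 9 rose, 1 fell and 7 did not pass, with a median of 1.48. The list held Actc1 and Acta1, given above, and Myog, a myogenic regulator that rose by 2.09 ± 0.26. Their summed level, in the same unit, ran from 10.6 to 11.1 at E12.5, 13.1 to 14.8 at E13.5, 16.5 to 19.1 at E14.5 and 21.7 to 24.0 at E15.5. Tnnc2, fast troponin C, rose by 5.50 ± 0.34, and Chrna1, the muscle acetylcholine receptor, by 3.97 ± 1.02. The 1 that fell was Tnnc1, another troponin C gene, with -1.80 ± 0.26 (adjusted p = 0.0035). The 7 that did not pass ran from -0.93 for Myl1 to 2.15 for Ttn. Only 1 of the E12.5 arrays measured Chrna1 above background. Myf5, Myf6, Myh3 and Neb had no probe among those tested, and Myod1 was above background on 6 of the 8 arrays. All 8 pericyte genes were measured: 4 rose and 0 fell, with summed levels of 14.4 to 17.3 at E12.5 and 21.5 to 25.2 at E15.5. Abcc9 rose by 3.20 ± 0.57, Rgs5 by 1.14 ± 0.22 and Pdgfrb by 0.79 ± 0.22, and Higd1b, not above background on either E12.5 array, was at least 5.43-fold higher. The other 4 pericyte genes did not pass, with 0.57 for Kcnj8, 0.02 for Notch3, -0.18 for Anpep and -1.18 ± 0.42 for Cspg4 (adjusted p = 0.0678). Of 8 endothelial genes 0 rose and 3 fell, and their summed levels went from 20.4 to 20.5 at E12.5 to 9.85 to 10.3 at E15.5. The fallen ones were Kdr, a receptor for vascular growth factor, with -2.59, Cldn5 with -1.86 and Tie1 with -1.43. The other 5 did not pass, with -0.50 for Emcn, -0.30 for Cdh5, -0.22 for Pecam1, -0.04 for Esam and 0.55 for Tek. A summed level weighs bright probes most, so it does not stand for all 8 genes alike. Of 7 mesonephros genes 1 rose and 4 fell, led by Lhx1 with -5.65, and their summed levels went from 3.01 to 3.27 at E12.5 to 0.352 to 0.365 at E15.5. Of 6 Sertoli cell markers 0 rose and 0 fell, with a median of -0.31. Of 6 germ cell markers 1 rose and 4 fell, with a median of -1.34. The part of Leydig cells, striated muscle cells, pericytes, endothelium, mesonephros, Sertoli cells or germ cells in the rise of the smooth muscle genes was not tested.

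Genes with a pattern most like the set were found by correlation over the 8 arrays with the mean centred profile of the 9 genes, 1 probe each, the brightest. For Tagln this was A_51_P450527, not the probe that rose. Arrays share stages and slides, so these values are a description only. The closest were Sult1a1 (r = 0.994), Crtac1 (r = 0.991), Pde6h (r = 0.989) and then Ecrg4, Eno2 and Sirt2 (r = 0.988 each). With each slide's mean removed, Crtac1 (r = 0.992) and Sult1a1 (r = 0.991) were again closest, followed by Ggt7, 1700029J07Rik and Cd2 (r = 0.989 each). Crtac1 rose by 1.71 ± 0.19 and Sult1a1 by 1.02 ± 0.21 over the whole span.

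The authors' deposited table of stage ratios gave the same direction as the scanner values for each of the 8 member probes called over the whole span. In the authors' deposited table the ratios of Cnn1 were 0.371, 0.972, 1.80 and 3.46 from E12.5 to E15.5. That table rests on the same arrays.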

How the data were processed

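Whole male gonads of 4 stages were measured on 8 one-colour Agilent arrays, 2 per stage. Per the file headers, the deposited spot intensity had been background-subtracted and cleared of spatial trends within each array by Agilent Feature Extraction 9.1.3.1 (E12.5, E13.5) or 9.5.3.1 (E14.5, E15.5), with no step that set arrays to a common scale. Version 9.5 is the one in the submitters' processing notes. The authors' deposited table holds a linear ratio per stage to a centre over the series, with column medians of 1.14, 1.00, 0.898 and 0.859. Its centring, its scaling and its way of combining arrays remain unknown, and it served for directions only.

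Control spots and outlier spots were dropped, spots of a probe averaged, and log2 values set relative to the array's 75th percentile. A probe was kept if 1 or more stages had both arrays well above background (28188 of 41174). Accessions without versions gave 22951 probes 1 symbol of GRCm38.p6, 0 several and 18223 none. Probes under other identifiers may also read these genes and were not used here. One model of limma 3.58.1 (R 4.3.3) with a mean per stage was fitted to all probes (4 residual degrees of freedom plus 2.66 from the moderated variance) and tested on simulated data. With arrays as duplicates, their number limits the precision. An "at least" fold was used where no E12.5 array measured a probe that rose. It divides the E15.5 mean by a floor, taken per E12.5 array. The floor is the larger of that probe's signal and the dimmest signal of any probe above background. No such bound was computed for falls.

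Alternatives were median scaling, quantile normalization, normexp correction (offset 50, on median signals, since the planned mean signals were not among the columns), no filter, a filter on all arrays, 1 probe per gene, slide as a block, only the arrays compared, and leaving out each array. Named genes were all members, per other list up to 4 called genes of largest change, and the closest patterns. Srf, Myocd and the genes named beyond that rule were named after their values were seen. Members and lists were chosen with earlier results of these data known. Array numbers pair samples only through slides 1 and 2.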

Additional observations from a re-analysis of the deposited data

How the results depend on the processing

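Alternatives were run for the 14 probes in each comparison. Over the whole span 8 probes were called, and 6 to 8 when single arrays were left out, 5 after normexp correction and 4 with 1 probe per gene, where only 9 probes entered. Acta2 A_52_P420504, Acta2 A_52_P210078, Cnn1, Myh11 and Tagln A_52_P517683 kept that call in every setting in which they were tested. From E12.5 to E13.5, 3 were called, but 0 after normexp and 0 with only the arrays compared, and 0 to 3 when single arrays were left out. From E13.5 to E14.5, 2 were called, but 0 with median scaling, normexp, no filter or only the arrays compared, 1 with 1 probe per gene, and 0 to 1 when single arrays were left out. Leaving out an array leaves its stage with 1, which is then assumed to vary like the others. The number in stage order, 6, was 3 with median scaling. With slide as a replicate block, 2 probes were called at E13.5, since Tagln A_52_P517683 lost its call. The block changed no other call, and it could not be fitted across slides. The step difference was not run with only the arrays compared, since it uses all of them.

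No change that turned sign had been called at an adjusted p under 0.05. Among them, Lmod1 at E14.5 against E13.5 had an unadjusted p of 0.0207 in limma. After normexp, first-day values were -0.0050 for Acta2 A_51_P450957 and -0.11 for Mylk A_52_P575217. E14.5 against E13.5 then gave -0.0024 for Acta2 A_52_P210078, -0.050 for Lmod1, 0.12 for Mylk A_52_P145912 and 0.22 for Mylk A_52_P575217, and the step difference of Lmod1 was -0.030. Median scaling gave 0.015 for Cald1 A_51_P357573 over the first day, and over the last day -0.12 for it and -0.0093 for Des. Quantile normalization gave -0.022 for Cald1 A_51_P357573 over the last day and 0.17 for Tagln A_51_P450527 over the span. The authors' deposited table gave -0.014 for Des over the first day, -0.18 for Cald1 A_52_P599578 over the span, and over the last day -0.071 for Acta2 A_51_P450957, -0.0049 for Actg2, -0.11 for Des and -0.22 for Cald1 A_51_P357573. Normexp moved the median of all probes to 0.33, -0.48 and -0.18 at E13.5 against E12.5, E14.5 against E13.5 and over the span. Median scaling moved it to -0.15 over the last day. Relative to the median of all probes, 0 of the 13 called changes turned sign under median scaling, quantile normalization, normexp or no filter. The cause was not tested.

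When single arrays were left out, the first-day change ran from -0.044 to 1.15 for Actg2, -0.37 to 0.22 for Cald1 A_51_P357573, -0.31 to 0.53 for Des and -1.09 to 1.90 for Tagln A_51_P450527. E14.5 against E13.5 ran from -1.18 to 0.18 for Des and -1.78 to 0.10 for Tagln A_51_P450527, and the whole span from -0.64 to 0.12 and -1.59 to 1.41. Over the last day it ran from -0.14 to 0.49 for Acta2 A_51_P450957, -0.078 to 0.56 for Actg2, -0.15 to 0.19 for Cald1 A_51_P357573, -0.31 to 0.042 for Cald1 A_52_P599578 and -0.54 to 0.81 for Des.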
